A study of Mus musculus with 4 samples.

Results

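The ZBTB genes encode transcription factors with a BTB domain near the start of the protein and C2H2 zinc fingers towards its end. Members were chosen by name, as the annotated genes whose mouse symbol is Zbtb, a number and at most 1 letter, leaving out Zbtb7b. The rule found 39 of the 50600 genes in the tables. They were followed by RNA sequencing in primary T cells of the inbred mouse strain C57BL/6NJ. There was a single group of 4 libraries, numbered by the labels as biological replicates 1 to 4. The labels give no treatment, and they record age and stage as unknown and sex as not collected. Alignment names inside the tables read Th0, activated and 24 h in each library. The assay is called total RNA-seq, whereas a protocol linked in the labels has poly(A)+ RNA in its name and another has CD4+ T-cell differentiation. All libraries list the same donor entry, and the number of animals is not stated. The X-inactivation RNA Xist had 163, 150, 0.715 and 0.696 TPM in replicates 1 to 4, and the Y-linked gene Ddx3y had 0.0434, 0.0219, 38.8 and 39.3 TPM. Replicates 1 and 2 thus carried Xist with almost no Ddx3y, and replicates 3 and 4 the reverse, so the libraries are not all technical repeats of 1 sample. P-values measure the spread between these libraries, part of which may be technical.

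Fragments assigned to genes numbered 47558517 to 60102919 in replicates 1, 3 and 4 and 273136467 in replicate 2. All 7 T-cell markers, among them Cd3e, Trac and Cd4, reached 10 TPM in each library (TPM, a transcript level scaled by exon length and by the total of the library). Their sum ran from 4270 to 4593 TPM. All 5 dendritic-cell, all 5 macrophage and monocyte, and all 4 endothelial and stromal markers were below 1 TPM in every library. The sum of 6 B- and plasma-cell markers ran from 2.65 to 5.35 TPM.

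The BTB domain lets these proteins pair with each other and recruit co-repressors such as the NCoR and SMRT complexes, or the ubiquitin ligase scaffold CUL3, and the zinc fingers read DNA. Many members act as repressors. In lymphocytes several set lineage and effector choices. Zbtb16 (PLZF) directs innate-like T cells, Zbtb1 is needed for lymphoid development, and Zbtb32 is switched on in activated lymphocytes and limits their response.

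Most ZBTB genes were transcribed, over a wide range of levels. Of the 39 genes, 32 (82.1%) reached 1 TPM in all 4 libraries and 21 (53.8%) reached 10 TPM. Over all 50600 annotated genes these shares were 22.7% and 16.0%, and over the 22271 genes with at least 1 fragment they were 51.6% and 36.4%. A closer set is the 400 genes whose symbol is Zfp and a number, which are mostly other C2H2 zinc-finger genes. Among those, 295 (73.8%) were at 1 TPM and 151 (37.8%) at 10 TPM in every library. The median of the mean levels was 14.4 TPM for the ZBTB genes and 6.84 TPM for the Zfp-numbered genes. These are descriptions, and the difference was not tested.

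**Figure D1:**
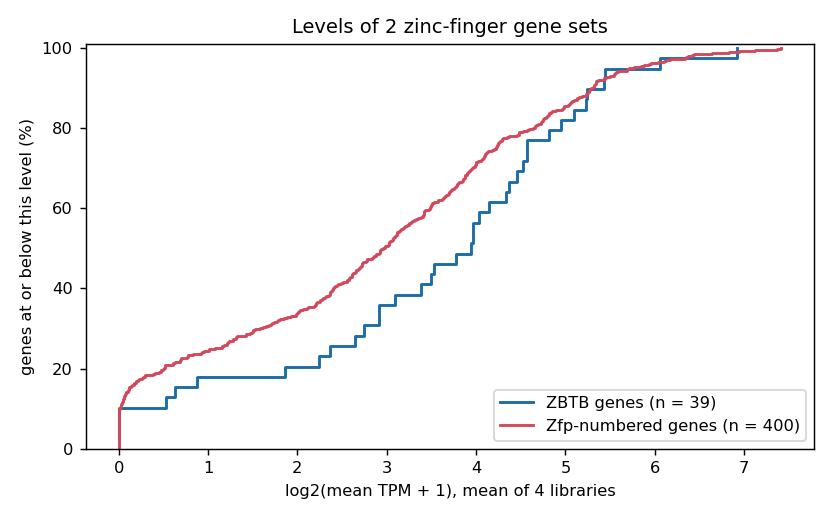
Cumulative share of genes (%) against log2(mean TPM + 1) over 4 libraries, for the 39 ZBTB genes and the 400 Zfp-numbered genes. The ZBTB curve lies to the right of the other through the middle of the range, with medians of 14.4 and 6.84 TPM.

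The summed level of the 39 genes was 701, 753, 725 and 715 TPM in replicates 1 to 4. Its mean was 724 ± 22.1 TPM (SD, n = 4). The 10 highest members made up between 62.5% and 64.0% of that sum in each library. Zbtb32 alone made up 16.6% of the summed mean levels, and the highest member stood 45.5 times above the 32nd, Zbtb10.

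**Figure D2:**
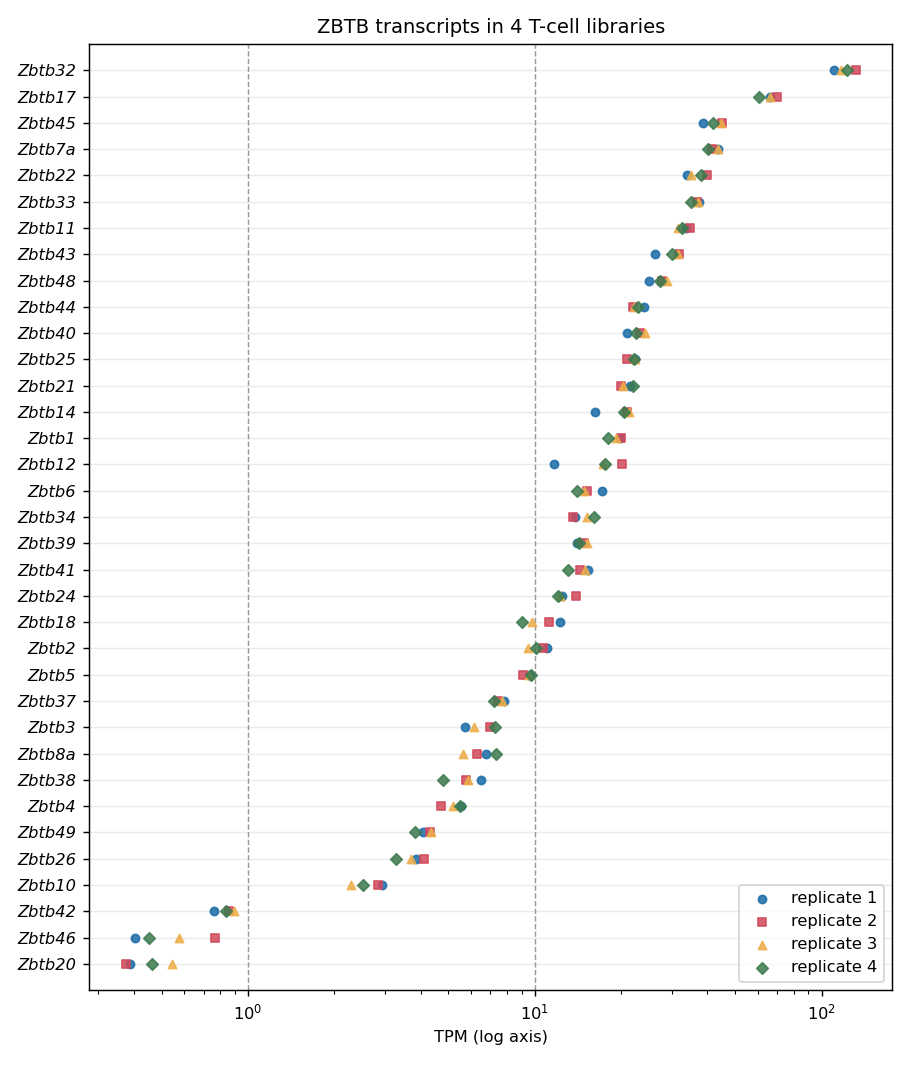
Level in TPM (log axis) of the 35 ZBTB genes with more than a few fragments, 1 row per gene in order of mean level, with 1 symbol per library and dashed lines at 1 and 10 TPM. On this scale Zbtb32 and Zbtb17 lead in every library, and Zbtb42, Zbtb46 and Zbtb20 lie below 1 TPM.

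Per exon length, Zbtb32 was the highest member in every library. Zbtb32 (ENSMUSG00000006310.10, mm10 chromosome 7, 30589681 to 30598909, minus strand) had 110, 132, 117 and 122 TPM in replicates 1 to 4. Zbtb17 (Miz1), a partner of MYC (ENSMUSG00000006215.12, chromosome 4, 141444654 to 141467930, plus strand), had 65.9, 69.8, 66.0 and 60.3 TPM. It was second in every library, and the values of these genes did not overlap. Zbtb32 exceeded Zbtb17 by 0.87 ± 0.12 on the log2(TPM + 1) scale within libraries (mean ± SD, n = 4). Without division by length the lead was lost: Zbtb7a averaged 83.8 CPM (counts scaled by the library total alone) and Zbtb32 82.9 CPM, with Zbtb7a higher in replicates 1 and 3 and Zbtb32 in replicates 2 and 4.

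RefSeq start regions of the members differed in their content of CpG, the dinucleotide that is dense at CpG-island promoters. RefSeq promoter windows (build GRCm38.p6, 250 bases before to 50 after an annotated start) matched 34 of the 39 genes by symbol. Zbtb7c, Zbtb10, Zbtb16, Zbtb40 and Zbtb48 had no window in the table used. Taking the window richest in CpG for each gene, the median was 29.5 CpG for the members, against 23 for 8343 genes that reached 1 TPM in all libraries and 8 for all 27025 genes with a window. At least 15 CpG were found in 28 of 34 members (82.4%), 78.7% of the genes at 1 TPM or more and 37.1% of all genes. The 6 members under 15 were Zbtb32 (10 CpG), Zbtb8b (12), Zbtb8a (13), Zbtb3 (11), Zbtb20 (3) and Zbtb46 (1). The windows of Zbtb46 and Zbtb20 belong to starts inside the counted gene, 35038 and 371403 bases from its 5′ end, so their CpG counts do not describe that end. Of the 34 windows, 28 belong to starts within 1000 bases of the 5′ end. The other 6 are those of Zbtb46, Zbtb20, Zbtb38, Zbtb12, Zbtb6 and Zbtb7a. The highest member thus fell in 1 class with members at 6.53 TPM or less, and the limit of 15 was chosen after the values were seen. Windows are shown 5′ to 3′ on the gene's strand for the highest member, the second, the head-to-head pair Zbtb25 and Zbtb1, and the internal start of Zbtb46, with every CpG in capitals.
Zbtb32, chr7:30598860-30599159, minus strand: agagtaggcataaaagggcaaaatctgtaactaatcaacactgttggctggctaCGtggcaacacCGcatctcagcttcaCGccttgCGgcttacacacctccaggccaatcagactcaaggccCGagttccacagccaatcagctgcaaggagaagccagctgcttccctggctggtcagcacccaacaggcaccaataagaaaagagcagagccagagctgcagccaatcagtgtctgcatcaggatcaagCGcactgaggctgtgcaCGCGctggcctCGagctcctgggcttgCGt
Zbtb17, chr4:141444423-141444722, plus strand: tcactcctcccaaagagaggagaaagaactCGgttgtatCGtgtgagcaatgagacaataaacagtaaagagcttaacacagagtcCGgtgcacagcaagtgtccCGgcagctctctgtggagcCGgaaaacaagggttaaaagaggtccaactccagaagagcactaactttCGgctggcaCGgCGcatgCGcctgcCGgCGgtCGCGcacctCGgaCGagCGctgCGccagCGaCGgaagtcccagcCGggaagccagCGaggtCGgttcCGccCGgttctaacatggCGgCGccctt
Zbtb25, chr12:76369415-76369714, minus strand: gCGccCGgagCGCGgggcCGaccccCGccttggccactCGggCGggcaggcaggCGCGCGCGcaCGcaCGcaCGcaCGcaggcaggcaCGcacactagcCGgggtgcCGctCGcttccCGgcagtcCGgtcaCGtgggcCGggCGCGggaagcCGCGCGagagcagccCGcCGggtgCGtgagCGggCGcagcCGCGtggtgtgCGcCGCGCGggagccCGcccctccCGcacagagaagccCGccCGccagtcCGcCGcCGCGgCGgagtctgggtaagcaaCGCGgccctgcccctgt
Zbtb1, chr12:76370270-76370569, plus strand: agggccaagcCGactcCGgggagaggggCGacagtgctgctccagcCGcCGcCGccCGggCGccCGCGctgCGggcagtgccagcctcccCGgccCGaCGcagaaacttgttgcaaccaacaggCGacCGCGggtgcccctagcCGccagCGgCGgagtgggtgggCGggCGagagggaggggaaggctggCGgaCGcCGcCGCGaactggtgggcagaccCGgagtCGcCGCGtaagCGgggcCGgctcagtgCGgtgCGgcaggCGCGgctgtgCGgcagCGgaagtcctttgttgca
Zbtb46, chr2:181424339-181424638, minus strand: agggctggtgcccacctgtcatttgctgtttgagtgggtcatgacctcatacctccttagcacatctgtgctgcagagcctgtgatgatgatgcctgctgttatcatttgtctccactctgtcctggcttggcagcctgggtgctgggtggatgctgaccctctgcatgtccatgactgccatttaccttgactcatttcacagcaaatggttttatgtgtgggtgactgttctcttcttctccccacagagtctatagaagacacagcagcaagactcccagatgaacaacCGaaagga

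The windows held 10 CpG for Zbtb32, 26 for Zbtb17, 51 for Zbtb25, 39 for Zbtb1 and 1 for Zbtb46. Short motifs were searched on both strands, and matches of different motifs were allowed to overlap. The ETS-family motif CCGGAAG was present in 12 of 34 members (35.3%), 23.2% of the genes at 1 TPM or more and 9.93% of all genes with a window. The GC box GGGCGG was present in 25 members (73.5%), against 70.8% and 38.2% in the same gene sets. The E-box CACGTG, bound by MYC and MAX, was present in 5 members (14.7%), against 12.5% and 8.09%. The AP-1 motif TGACTCA was found in 1 member (2.94%), Zbtb46, against 3.87% and 5.95%. These matches describe letters in the windows and were not tested.

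Among the 7 members grouped here as lymphocyte regulators, 4 reached 10 TPM and 3 were below 1 TPM in every library. The group, and those 3, include Zbtb46, which is known from dendritic cells. Besides Zbtb32, Zbtb7a (LRF), a regulator of lymphoid and erythroid fate, had 43.4, 41.4, 43.4 and 40.1 TPM in replicates 1 to 4. Zbtb25 had 22.3, 20.9, 22.3 and 22.2 TPM, and Zbtb1 had 19.8, 19.9, 19.1 and 18.1 TPM. Their libraries lay close together, with coefficients of variation of 3.87% for Zbtb7a, 3.10% for Zbtb25 and 4.43% for Zbtb1.

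Zbtb16, Zbtb46 and Zbtb20 were low on the TPM scale. Zbtb16 had 6 fragments in replicate 2 and none in the other libraries. That count corresponds to 0.0144 TPM, with an exact 95% Poisson interval of 0.00527 to 0.0312 TPM that covers counting error only. A detection floor of 3 fragments allows up to 0.0405 TPM of Zbtb16 in the shallowest library. Of 7 markers of innate-like T cells, 4 were below 1 TPM in every library, and no fragment of Klrb1c or Tcrg-C1 was counted.

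Zbtb46, known as a marker of classical dendritic cells, had 0.404, 0.765, 0.574 and 0.452 TPM in replicates 1 to 4, highest in replicate 2. The 5 dendritic-cell markers summed to 0.0506, 0.197, 0.371 and 0.0640 TPM in the same order, highest in replicate 3, and Itgax, Clec9a and Siglech were at 0 fragments. The endothelial and stromal markers summed to between 0.103 and 0.471 TPM, with Cdh5 at 0 fragments. The part of such cells in the Zbtb46 signal was not tested. In bulk RNA, fewer cells of a type and less RNA per cell cannot be told apart. Zbtb20, which acts in B-lineage and plasma cells among others, had 0.387, 0.374, 0.543 and 0.464 TPM, highest in replicate 3. Its annotation holds 30730 exon bases, the most of any member. Without division by length Zbtb20 averaged 3.98 CPM, close to Zbtb3 at 3.89 CPM, which stood at 6.53 TPM.

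The 3 members known to bind methylated CpG were all above 1 TPM, at unequal levels. Zbtb33 (Kaiso; ENSMUSG00000048047.3, chromosome X, 38189793 to 38197046, plus strand) had 37.3, 36.8, 37.0 and 34.9 TPM in replicates 1 to 4. Zbtb38 had 6.48, 5.76, 5.84 and 4.78 TPM, and Zbtb4 had 5.55, 4.71, 5.20 and 5.50 TPM. Zbtb33 lay above both in every library, and the ranges of Zbtb38 and Zbtb4 overlapped.

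Genes of genome maintenance were all above 1 TPM. Zbtb48 (TZAP), which binds telomeric repeats, had 24.9, 27.8, 28.9 and 27.3 TPM in replicates 1 to 4. Zbtb40 stood at 22.7 ± 1.33 TPM (SD, n = 4) and Zbtb10 at 2.64 ± 0.296. Zbtb24, mutated in the human immunodeficiency, centromeric instability and facial anomalies (ICF) syndrome, had 12.5, 14.0, 12.2 and 12.1 TPM. Zbtb48 was above Zbtb24 in every library. The other 3 ICF genes were higher than Zbtb24. Cdca7, an established target of ZBTB24, had 298 ± 18.9 TPM, the remodeller gene Hells 165 ± 8.25 and the DNA methyltransferase gene Dnmt3b 32.6 ± 1.25 (SD, n = 4 each).

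In the group of growth and cell cycle, Zbtb17 was the only member at 10 TPM or more in all libraries. Zbtb2 had 11.02, 10.7, 9.47 and 10.1 TPM, so that replicate 3 fell under that limit. Zbtb5, known in human cells as a repressor of the cell-cycle inhibitor gene CDKN1A, stood at 9.47 ± 0.282 TPM (SD, n = 4). Zbtb49 stood at 4.15 ± 0.242 TPM, and at 9.14 TPM when the longest annotated transcript replaced the union of exons as the length. Genes tied to Zbtb17 were high, with Myc at 665 ± 20.8, Max at 143 ± 0.671 and Cdkn1a at 434 ± 46.7 TPM (SD, n = 4 each). Cdkn2b, which Zbtb17 activates in other cells, had fragments in replicate 2 only, at 0.136 TPM.

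Among 8 genes of development and general transcription, 5 reached 10 TPM in every library. Zbtb45, a close relative of Zbtb20, had 38.5, 44.8, 44.5 and 41.7 TPM in replicates 1 to 4, lowest in replicate 1. Zbtb11, an essential regulator linked to mitochondrial function, had 33.7, 34.9, 31.6 and 32.5 TPM. Zbtb21 had 21.6, 19.9, 20.3 and 22.0 TPM, and Zbtb14 had 16.2, 20.9, 21.2 and 20.4 TPM. Zbtb12 had 11.7, 20.2, 17.3 and 17.5 TPM. Replicate 1 was the lowest library for Zbtb14 and for Zbtb12. Zbtb18 (RP58), a repressor known from neurons, had 12.3, 11.2, 9.75 and 9.05 TPM, and its relative Zbtb42 had 0.759, 0.862, 0.892 and 0.838 TPM. No fragment of Zbtb7c was counted, which at the floor of 3 fragments allows up to 0.0452 TPM in the shallowest library.

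Of the 13 less characterised members, 11 reached 1 TPM and 7 reached 10 TPM in every library. Zbtb22, which shares 61 exon bases with Tapbp, had 34.0, 39.7, 35.1 and 38.1 TPM in replicates 1 to 4. Zbtb43 had 26.3, 31.9, 31.7 and 30.0 TPM, and Zbtb44 had 24.0, 22.1, 22.1 and 23.0 TPM. Zbtb43 was lowest in replicate 1, where Zbtb44 was highest. Zbtb6 had 17.2, 15.2, 14.9 and 14.0 TPM, and Zbtb34 had 13.8, 13.5, 15.2 and 16.1 TPM. Zbtb39 stood at 14.6 ± 0.523, Zbtb41 at 14.4 ± 0.981, Zbtb37 at 7.55 ± 0.291 and Zbtb3 at 6.53 ± 0.728 TPM (SD, n = 4 each). Zbtb8a had 6.75, 6.29, 5.64 and 7.34 TPM, and Zbtb26 had 3.86, 4.12, 3.69 and 3.29 TPM.

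**Figure D3:**
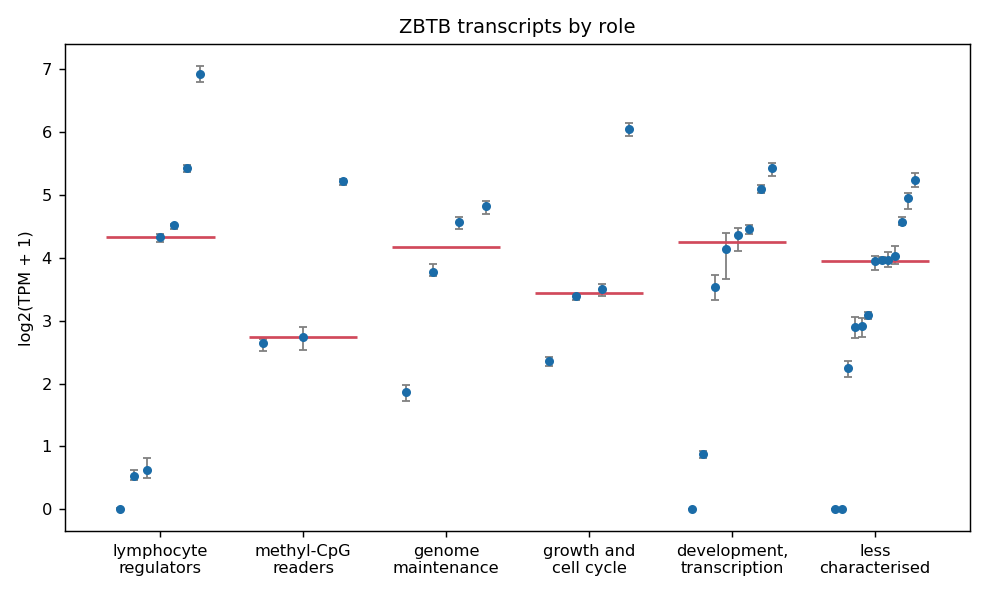
Mean level of each ZBTB gene as log2(TPM + 1), grouped by role, with bars from the lowest to the highest of the 4 libraries and a red line at the median of the group. Each role holds members that differ by more than their range over libraries, and only the lymphocyte regulators, the development group and the less characterised genes hold members near 0.

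Zbtb8b and Zbtb9 had no fragment in any library, and the meaning of that 0 differs between them. For Zbtb8b no exon base is shared with another gene on the same strand, and 3 fragments in the shallowest library allow up to 0.0330 TPM. For Zbtb9 (ENSMUSG00000079605.4, chromosome 17, 26973167 to 26976205, plus strand), 98.2% of its exon bases also belong to exons of Ggnbp1 on the same strand, which leaves 50 bases of its own. The tables were counted without the option that assigns fragments to overlapping genes, so fragments within the shared bases were given to neither gene. The level of Zbtb9 is therefore not measured by these counts. Ggnbp1 itself had 174, 876, 134 and 177 fragments in replicates 1 to 4. Of the 39 members, 33 share no exon base with another gene on their strand, and Zbtb9 was the only one that shares over 10%.

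The 35 genes with more than 12 fragments in total form 34 steps between neighbours. In 16 steps the mean within-library difference of log2(TPM + 1) was larger than its SD over the 4 libraries, and in 18 it was not. Steps within their SD were found from near the top (Zbtb45 over Zbtb7a, 0.0082 ± 0.12) to the lowest (Zbtb46 over Zbtb20, 0.10 ± 0.18). None of the 7 steps from Zbtb21 through Zbtb14, Zbtb1, Zbtb12, Zbtb6, Zbtb34 and Zbtb39 to Zbtb41 was larger than its SD. Over the 4 libraries, Zbtb12 held ranks from 14 to 22, whereas Zbtb32, Zbtb17, Zbtb48, Zbtb49, Zbtb26, Zbtb10 and Zbtb42 each kept a single rank.

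Members were compared within libraries in 14 pairs. The pairs include relatives, chromosomal neighbours, known partners and members of the same role, and how alike their proteins are was not measured. In 12 of the 14 pairs the same gene was higher in 4 of 4 libraries. Flipping the signs of 4 differences, an exact two-sided permutation test, gives p = 0.13 at the least, and no pair could pass a threshold of 0.05. Those 12 pairs had that smallest p, which is 0.146 (exact permutation, Benjamini-Hochberg adjusted for 14 pairs). Differences below are means ± SD of log2(TPM + 1) over the 4 libraries.

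Zbtb20 differed from Zbtb45 by -4.91 ± 0.10, Zbtb18 from Zbtb42 by 2.65 ± 0.21, and Zbtb33 from Zbtb4 by 2.59 ± 0.11. Zbtb38 differed from Zbtb4 by 0.10 ± 0.19, higher in 3 of 4 libraries (exact permutation p = 0.375). Zbtb14 differed from its partner Zbtb21, a pairing known from human cells, by -0.09 ± 0.22, higher in 2 of 4 libraries (exact permutation p = 0.625), and by 0.0098 without replicate 1. Zbtb16 differed from Zbtb32 by -6.91 ± 0.10, Zbtb17 from Zbtb16 by 6.05 ± 0.08, Zbtb7a from Zbtb7c by 5.43 ± 0.05 and Zbtb8a from Zbtb8b by 2.90 ± 0.14. In those last comparisons 1 gene was at or under the floor, so the size depends on the pseudocount of 1. Zbtb24 differed from Zbtb48 by -1.05 ± 0.12.

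**Figure D4:**
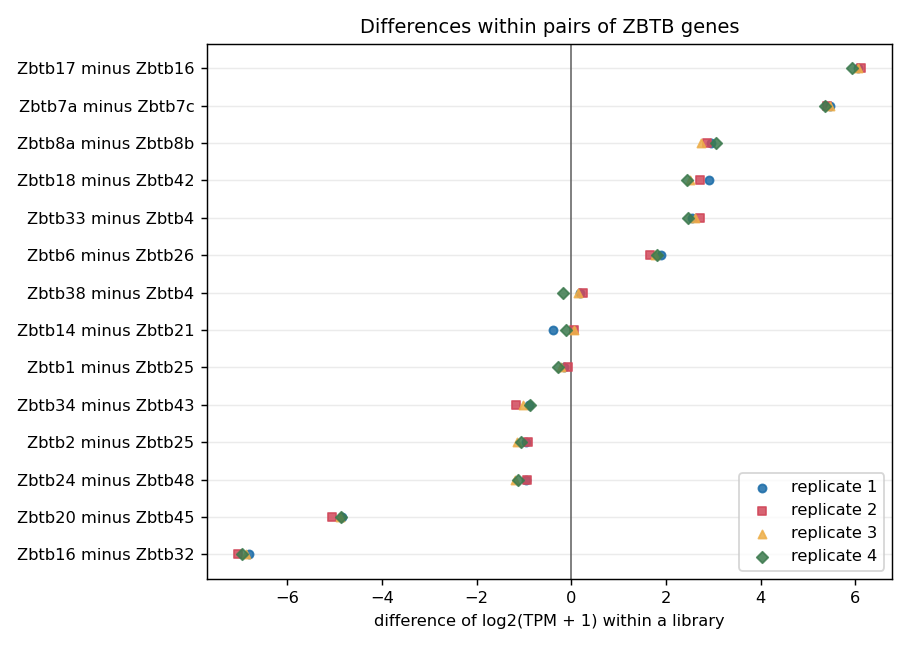
Difference of log2(TPM + 1), first gene minus second, for 14 pairs of ZBTB genes, with 1 symbol per library and a line at 0. Only Zbtb38 minus Zbtb4 and Zbtb14 minus Zbtb21 have libraries on both sides of 0.

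Neighbouring members within 100 kb of each other numbered 4 pairs. Zbtb25 and Zbtb1 lie head to head on chromosome 12, with 663 bases between them, and had similar levels per length. Zbtb1 differed from Zbtb25 by -0.18 ± 0.09, lower in 4 of 4 libraries. Without division by length, on the log2(CPM + 1) scale, the difference was 1.72, since Zbtb1 has 12190 exon bases and Zbtb25 has 3131. The other neighbours lie on the same strand. On chromosome 2, Zbtb34 differed from Zbtb43 by -0.99 ± 0.14, and Zbtb6 from Zbtb26 by 1.78 ± 0.10. Zbtb6 and Zbtb26 share 449 exon bases, which is 8.84% of Zbtb6 and 4.73% of Zbtb26, and fragments there were counted for neither. On chromosome 4, Zbtb8a was transcribed and Zbtb8b, with 47648 bases between the genes, had no fragment. Zbtb2 and Zbtb25, which are not neighbours, differed by -1.02 ± 0.11, and by 0.14 on the log2(CPM + 1) scale.

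No ZBTB gene was called as varying between replicates beyond other genes of its level. The test (edgeR, goodness of fit of a model with 1 common level, Benjamini-Hochberg adjusted p under 0.05) called 0 of the 35 members that passed the filter on low counts, against a background of 0.362% of 12712 genes. The 4 members that did not pass were Zbtb16, Zbtb7c, Zbtb8b and Zbtb9. The allowed spread is a trend fitted to these same libraries, so a call means more variation than in other genes of that level. The absence of calls therefore does not show that the members were steady. At an unadjusted p under 0.05, 1 member was reached, Zbtb12, where 5.54% of all genes were. With the dispersion trend of DESeq2 in place of that of edgeR, 0 members were called and 1 was at an unadjusted p under 0.05. The median residual deviance was 1.81 for the members and 1.98 for all genes tested. Coefficients of variation of the 35 genes ran from 2.96% for Zbtb33 to 29.3% for Zbtb46, with 26 under 10%. At a mean of 1 TPM or more, the median was 6.84% over 32 members and 7.40% over 12437 genes.

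The members of largest deviance were Zbtb12 (10.99, edgeR adjusted p = 0.509), Zbtb18 (6.50, edgeR adjusted p = 1.00), Zbtb14 (5.94) and Zbtb38 (5.56). Over the 11 alternatives the edgeR adjusted p of Zbtb12 ran from 0.0766, with a common dispersion, to 1.00. Without replicate 1 the deviance of Zbtb12 fell to 1.30 and that of Zbtb14 to 0.0797.

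In replicate 1 the members' deviations from their means went down with GC content. Across the 35 members, Spearman's rho between the GC content of the longest transcript and the deviation of log2(TPM + 1) from the mean of the libraries was -0.55, 0.30, 0.18 and 0.35 in replicates 1 to 4. Over 12415 genes at a mean of at least 1 TPM with a known GC content, the values were -0.35, 0.09, 0.19 and 0.20. These correlations are across genes of the same libraries, and the deviations of a gene sum to 0 over the libraries, so they are given as a description. Of the 17 members above the median GC content of 49.0%, replicate 1 was the lowest library for 10 and the highest for 2. Of the 17 below it, replicate 1 was the lowest for 2 and the highest for 8. Zbtb12, the member of highest GC content at 61.2%, was the lowest in replicate 1 relative to its mean. With GC and length trends removed from each library, its deviance was 10.7 (edgeR adjusted p = 0.547), and that of Zbtb14, with a GC content of 46.2%, was 8.50 (edgeR adjusted p = 0.838).

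**Figure D5:**
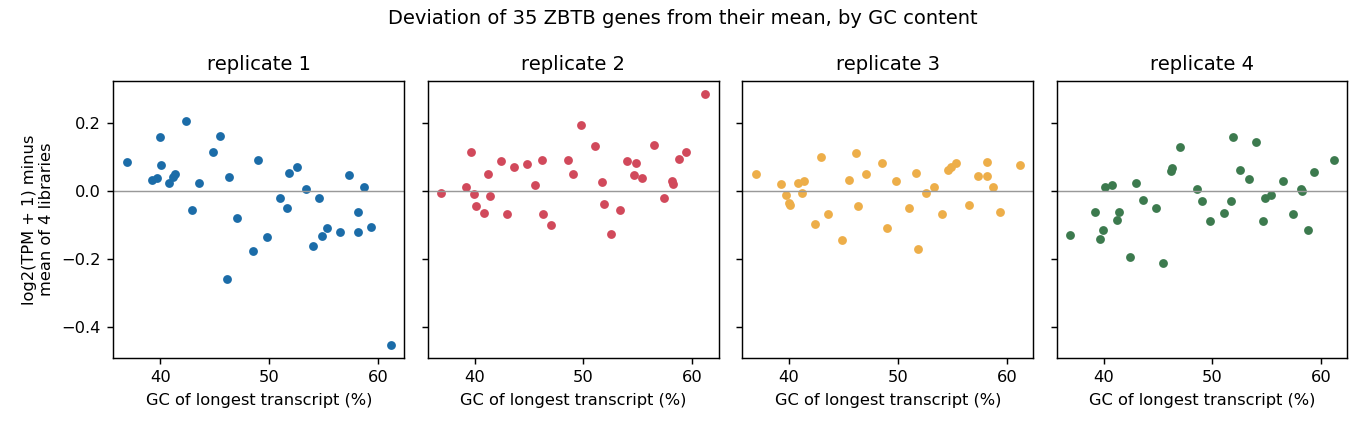
Deviation of log2(TPM + 1) from the mean of the 4 libraries (y axis) against the GC content in percent of the longest transcript (x axis), for 35 ZBTB genes, 1 panel per library. The points fall with GC content in replicate 1, with rho of -0.55, and lean upward in the other panels.

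Partners and relatives of the ZBTB proteins were transcribed throughout. All 15 genes of the co-repressor and CUL3 list reached 10 TPM in each library, and their median was 103 TPM. Hdac7 had 560 ± 48.3, Hdac1 157 ± 4.86 and Bcor 155 ± 8.34 TPM (SD, n = 4 each). Of 8 other BTB zinc-finger genes with different names, all reached 1 TPM and 5 reached 10 TPM in each library, and their median was 15.9 TPM. Zfp131 had 67.9 ± 5.57, Patz1 57.9 ± 4.91 and Hic1 48.1 ± 4.73 TPM (SD, n = 4 each). Bcl6, a repressor of the same family in follicular helper cells, stood at 5.01 ± 0.817 TPM.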

How the data were processed

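Gene transcripts of primary mouse T cells were measured in 4 libraries of 1 group. The deposited values are counts: the program was featureCounts 1.4.6-p4 per the file headers, run on GENCODE vM13 exons for read pairs aligned at both ends, with strand setting 2 (reverse-stranded). Multiply aligned pairs and pairs that overlap more than 1 gene were not assigned. The build is mm10 per the labels; the settings of the aligner are not given in the sources used here. Members with similar copies, or overlapping genes on their strand, may be undercounted. Each pair of libraries differed by more than sampling noise, with a chi-square of 9.67 to 31.0 per degree of freedom.

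TPM was computed here from the deposited counts and exon lengths. Symbols came from a table of mouse gene names by identifier (50376 of 50600 matched), and GC content from GENCODE vM21 transcripts. Variation between replicates was tested on the counts with edgeR 4.0.16 in R 4.3.3: filterByExpr with a minimum count of 10, TMM, trended dispersion of an intercept-only model, and residual deviance as chi-square on 3 degrees of freedom. On simulated counts for these 12712 genes with 200 moved in 1 random library, recovery was 32.8% at a 1.5-fold move, 58.2% at 2-fold and 89.4% at 4-fold, and 4 unmoved genes were called. Those counts were drawn at the fitted dispersion trend, with no scatter of genes around it. Real genes may scatter more, so these rates hold for that setting only. A floor of 3 fragments equals 0.0379 to 0.214 TPM for 1 kb of exons. DESeq2 1.42.0 gave size factors and a dispersion trend as alternatives. Python 3.11.15 with scipy 1.17.1 was used for the rest.

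The members and lists were chosen with earlier results of these data known. Every member is named; values per library are given for the 10 highest, the pairs, members set apart by 1 library and those at the floor. Zbtb12, Zbtb46, Ggnbp1, Bcl6 and Cdkn2b were added after their values were seen. Protein sequences were not used here, and the summed level of the innate-like T-cell markers is not reported here.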

Additional observations from a re-analysis of the deposited data

Results flagged for a closer look

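For each of 37 sets of 4 library values, the 35 members with more than 12 fragments, the summed level of the members and the fragment total, the gap between an extreme library and its neighbour was set against the whole range. A gap above Dixon's 95% critical value for 4 samples was found in 3 sets, where chance gives about 1 in 20. Zbtb25 was lowest in replicate 2, at 20.9 TPM against 22.2 to 22.3 TPM in the other libraries. Zbtb14 was lowest in replicate 1, at 16.2 TPM against 20.4 to 21.2 TPM in the others. Replicate 2 held 273136467 fragments, against 47558517 to 60102919 in the others. Neither Zbtb25 nor Zbtb14 was called as varying by edgeR.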

How the results depend on the processing

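The number of ZBTB genes called as varying was 0 under each of the 11 alternatives to the edgeR test, including each replicate left out. The 46 calls over all genes became 861 with a common dispersion, and ranged from 25 to 40 on leaving out 1 replicate, with the 25 without replicate 2. The 32 members at 1 TPM and the 21 at 10 TPM stayed within 1.5 times under their 9 alternatives each. The median member level of 14.4 TPM became 22.3 on the CPM scale and 11.5 TPM with the length of the longest annotated transcript, because both change the length scaling. Of the 39 member means, 34 moved by more than their SD over libraries on the CPM scale, which is another unit, and 30 with that transcript length. Part of the latter came through the library total, which the lengths of all genes set. Zbtb33, with 5122 bases under either length, went from 36.5 to 28.8 TPM. Under rescaling by TMM factors, and without mitochondrially encoded genes in the TPM total, all 39 stayed within their SD. The same held with replicate 2 thinned to the total of the shallowest library. Leaving out 1 replicate cannot shift a mean by more than its SD, so it does not test these levels. Levels of single members, and their order, depend on the length used for them and for all other genes. The longest-transcript length and the removal of GC and length trends were chosen after the data were seen. Of 98 pair differences under alternatives, 95 kept their sign. For the 12 pairs with the same gene higher in every library, leaving out a replicate or changing the pseudocount could not reverse it. Only the CPM scale and the longest-transcript length could do so for those pairs. On the log2(CPM + 1) scale Zbtb2 minus Zbtb25 was 0.14 and Zbtb1 minus Zbtb25 was 1.72. On the log2(TPM + 1) scale, leaving out 1 replicate, Zbtb14 minus Zbtb21 ranged from -0.14 without replicate 2 to 0.0098 without replicate 1. Without division by length, Zbtb14 averaged 24.4 CPM and Zbtb21 36.8 CPM, with Zbtb21 higher in every library. Depth limits the values of Zbtb16, Zbtb7c and Zbtb8b, and that of Zbtb9 is limited by its overlap with Ggnbp1.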
